A study of Mus musculus with 2 samples.

Results

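The 84 genes described here were chosen by their array signal, which was higher in mouse bone marrow-derived macrophages (BMDMs) that received apoptotic cell supernatant than in BMDMs that received medium. Among 18194 genes with a probe set of a single name, each read by its brightest such probe set, the selection took those with a supernatant signal of at least 150 and a supernatant to medium ratio of at least 1.7. Both thresholds were met by 134 genes, which is 0.737% of all named genes and 1.52% of the 8787 genes that had a supernatant signal of at least 150. Of these, 50 were set aside by symbol, namely 23 symbol starts (Nr4a, Egr, Fos, Jun, Myc, Ccl, Cxcl, Il1, Dusp, Spry, Nfkb, Pde, Klf, Rgs, Per, Gadd45, Btg, Tnf, Ier, Hsp, Slc, Zfp and Trim) and 13 single genes such as Thbs1, Ptgs2 and Vegfa. The genes that remained had been labelled as less studied, which nothing on the arrays measures, and well described genes such as Cd86, Ahr and Zc3h12a are among them. Since the ratio itself selected the genes, the ratios below are a description of the list and were not tested.

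The study asked which genes macrophages express in answer to soluble factors from dying cells. BMDMs of C57BL/6J female mice aged 8 weeks had been cultured for more than 7 days with M-CSF, the growth factor that drives macrophage differentiation, and were then incubated for 1 hr. One set received RPMI with 10% FCS, and the other the supernatant of W3 cells, a mouse T cell line (WR19L) made to express Fas. The W3 cells were exposed to FasL, the ligand that triggers death through Fas, for 30 min, were washed and were then kept for 60 min in RPMI with 1% FCS. There was 1 array per condition, so differences below carry neither p-values nor SDs, and whether 1 array stands for a single animal or a pool is not given in the sources used here. No array held the supernatant of living W3 cells. The serum contents come from different sources, the labels for the medium and the study's methods for the supernatant, so whether serum differed between the arrays is uncertain. On these arrays, apoptosis, the use of medium in which W3 cells had been kept and, if it differed, the serum content cannot be told apart. RNA came from whole cultures, in which more cells responding and more mRNA per cell cannot be told apart either.

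Within the first hour of a stimulus, a macrophage transcribes primary-response genes, whose induction needs no newly made protein because the transcription factors involved are already present and are activated by phosphorylation or release. One such route starts at receptors that raise cAMP, which activates protein kinase A and, through it, the factor CREB at cAMP response elements in promoters. The best known products of primary-response genes are transcription factors and cytokines. The genes below were chosen by signal, ratio and symbol only, and encode phosphatase regulators, kinases, receptors, enzymes and adaptors, among others. Whether they belong to such a response was not tested.

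Values are MAS5 signals, linear intensities per probe set that the authors scaled to the same trimmed mean on both arrays. The medium value is given first throughout, and levels of different probe sets are not comparable as amounts of mRNA. Background was judged from probe sets for olfactory and vomeronasal receptors, whose genes should be silent in macrophages, and gave a floor of 38.4. A ratio against a signal under it is a lower bound. Of the named genes, 11977 lay above the floor on at least 1 array and are called measured, with a median log2 ratio of -0.02. All 18 macrophage markers on the array were measured, none differed by 1.7-fold, and their signals summed to 308470 and 308643. Of 23 T cell markers on the array, 5 lay above the floor with medium and 3 with the supernatant (summed signal 1008 and 839), and Cd3d, Cd3e, Cd3g, Thy1, Cd2 and Cd4 lay under it on both. Of the T cell markers above it, Zap70 read 208 and 313, 1.51-fold higher, and Cd28 393 and 283, while Cd5, Cd8a and Ptcra were lower with the supernatant. Neutrophil markers above the floor numbered 2 and 5 (summed signal 700 and 927), with S100a9 at least 1.90-fold higher. The marker lists of dendritic, stromal and B cells summed to at most 488 on either array. Of their measured markers, 1 of 5 for dendritic cells was at least 1.7-fold higher and 1 of 3 for stromal cells at least 1.7-fold lower. Of 3 for B cells, 0 differed by 1.7-fold. Any part of such cells in the differences below was not tested.

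Over the 84 genes the ratio of deposited signals ranged from 1.7 to 10.9 with a median of 1.95, and most of the differences were small. Only 38 reached 2-fold, 12 reached 3-fold and 8 reached 4-fold, beside 0.96% of measured genes at 2-fold or more. The 50 genes set aside by symbol had a median ratio of 2.84, and 40 of them reached 2-fold. Signals with medium ran from 15.7 to 6385 (median 310) and with the supernatant from 152 to 10880 (median 704). With medium, 82 of the 84 genes already lay above the floor, 17 of them at 1000 or more. A gene with a supernatant signal of at least 150 lies under the floor with medium only if its ratio is high. The rule thus largely sets the count of 82. With medium, 25 of the 84 genes read under 150, some of them close to the floor.

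**Figure D1:**
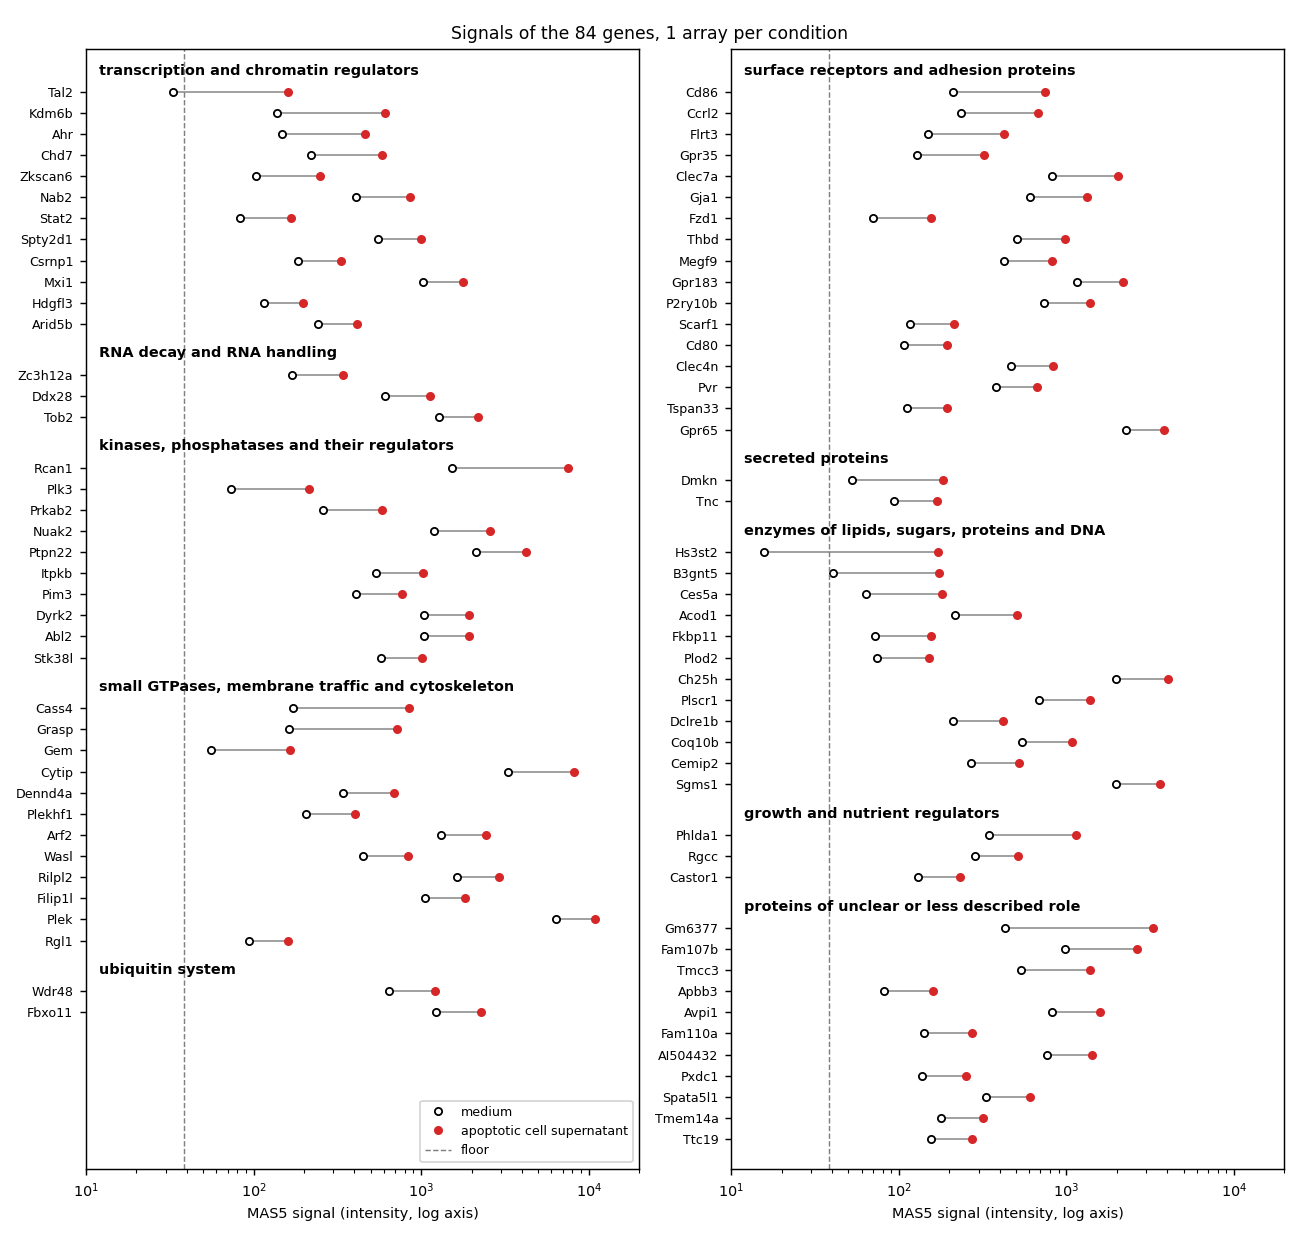
Signal of each of the 84 genes with medium and with apoptotic cell supernatant (log scale, linear MAS5 intensity, 1 array per condition), grouped by role and ordered by ratio within each role. The highest deposited ratio is 10.9 and the lowest 1.7, and 46 of the genes lie under 2-fold.

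The balance of higher and lower genes differed with brightness. Sorted by the brighter of a gene's signals, 4444 genes reached 1000, of which 64 were at least 1.7-fold higher with the supernatant, 33 of them from the list, and 8 were at least 1.7-fold lower. From 300 to under 1000 there were 42 higher genes, 28 from the list, and 19 lower genes. From 150 to under 300 there were 28 higher genes, 23 from the list, and 34 lower ones, an order that turns with quantile normalization (34 higher and 23 lower) and with loess (34 and 21). The SD of the log2 ratio over genes was 0.39 in the dimmest of these ranges and 0.31 in both others. For the 23 dim genes of the list, ratios of this size were thus as frequent downward as upward on the deposited scale, whereas among genes of 1000 or more they were mostly upward. By the mirrored thresholds 61 genes were lower, and 56 without the symbols that were set aside. The largest downward fold among the 61, from signals as deposited and not set to the floor, was 8.50.

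**Figure D2:**
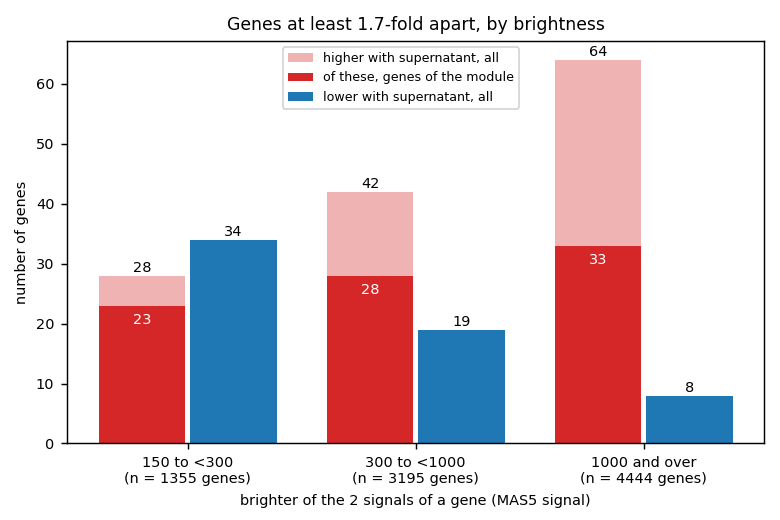
Number of genes at least 1.7-fold higher (list genes and genes set aside by symbol shown apart) and at least 1.7-fold lower with the supernatant, by the brighter of the gene's signals. At 1000 or more 64 genes were higher and 8 lower, while from 150 to under 300 the numbers were 28 and 34 as deposited, an order that turned to 34 and 23 with quantile normalization and 34 and 21 with loess.

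**Figure D3:**
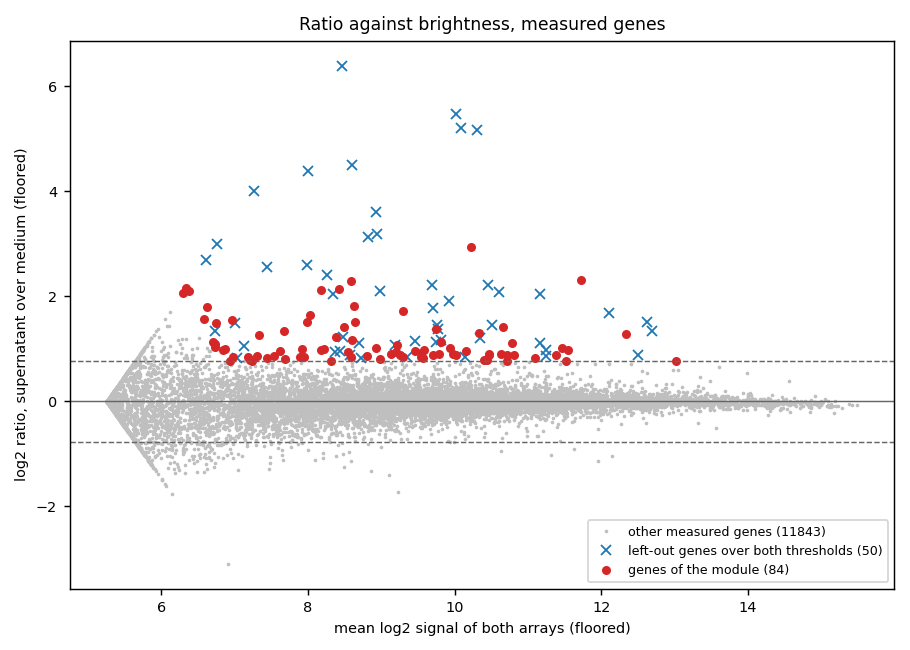
Log2 ratio of supernatant to medium against the mean log2 signal of both arrays for each measured gene. Values below the floor were raised to it on both axes, and list genes and genes set aside by symbol are marked. Most list genes lie between 1.7-fold and 2-fold, and the genes set aside reach higher ratios.

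Kinases, phosphatases and their regulators were 10 of the 84 genes. Rcan1, which encodes calcipressin, an inhibitor of the phosphatase calcineurin, had a signal of 1525 in medium and 7529 in the supernatant, 4.94-fold higher. Its second probe set read 113 and 629, 5.56-fold higher. The catalytic and regulatory calcineurin subunits did not share this difference: Ppp3ca read 3107 and 3094, Ppp3cb 3032 and 2971, and Ppp3r1 2867 and 3066. Plk3, a polo-like kinase of the stress response, read 73.3 and 215, 2.93-fold higher, whereas its relative Plk2, which is not in the list, read 1094 and 329. Nuak2, a kinase related to AMP-activated protein kinase, read 1196 and 2575, 2.15-fold higher, whereas Nuak1 read 148 and 64.3, 2.30-fold lower. Within each of these pairs the genes differed in opposite directions, and the pairs were picked after their values were seen.

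Ptpn22, a tyrosine phosphatase that restrains signalling in lymphocytes and myeloid cells, read 2136 and 4203, 1.97-fold higher. Prkab2, a beta subunit of AMP-activated protein kinase, read 258 and 584, 2.26-fold higher on its brightest probe set. Its other probe sets went the other way, with 323 and 307 on one and 71.7 and 42.0 on the other, so the gene's direction depends on the probe set. The other 4 genes in this group with ratios between 1.8 and 1.9 were Itpkb (540 and 1022), which phosphorylates inositol trisphosphate, the survival kinase Pim3 (411 and 770), Dyrk2 (1036 and 1940) and the cytoskeletal tyrosine kinase Abl2 (1041 and 1925). Stk38l, a kinase of the NDR family, read 573 and 1011, 1.76-fold higher. Abl2 also turned direction, to a log2 ratio of -0.27, when the log2 signals of all its probe sets were averaged. Among 106 measured genes of a list of kinases, phosphatases and their regulators, 8 were at least 1.7-fold higher and 2 lower. Their median log2 ratio was 0.05, beside 2.05% of all measured genes higher and 2.3% lower. This list and those of other gene classes below were written with results of these arrays known, so nothing is read from such differences.

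The promoter of Rcan1 is printed because the cAMP pathway is the route named above and its element lies there. RefSeq's promoter table (build GRCm38.p6, from 250 bases before to 50 after a start site) held promoters for 69 of the 84 genes, 101 in all. The 250 bases before the inner of the starts of Rcan1 lie at chr16:92400079-92400328 on the minus strand. Capitals mark a full cAMP response element, whose first base lies 175 bases before the start, and an AP-1 site 110 bases before it.

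Rcan1: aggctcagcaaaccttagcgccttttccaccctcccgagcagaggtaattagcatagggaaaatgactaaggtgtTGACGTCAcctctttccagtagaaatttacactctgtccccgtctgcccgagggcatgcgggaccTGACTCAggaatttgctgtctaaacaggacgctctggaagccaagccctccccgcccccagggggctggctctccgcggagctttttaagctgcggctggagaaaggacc

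The full element was in a promoter of 6 list genes, and for 4 more of them the 88 bases around it are printed with the element in capitals. They are Ch25h (chr19:34475162-34475249, minus strand), Hs3st2 (chr7:121392187-121392274, plus strand), Stk38l (chr6:146724826-146724913, plus strand) and Ttc19 (chr11:62281382-62281469, plus strand). The first base of the element lies between 51 and 69 bases before the start in these 4 genes. Ddx28, the remaining gene, has it 23 bases after its start, and that window is not printed.
Ch25h: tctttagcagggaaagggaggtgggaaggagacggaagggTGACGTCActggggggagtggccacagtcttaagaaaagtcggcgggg
Hs3st2: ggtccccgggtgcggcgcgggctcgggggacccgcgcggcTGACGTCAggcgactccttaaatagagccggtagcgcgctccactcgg
Stk38l: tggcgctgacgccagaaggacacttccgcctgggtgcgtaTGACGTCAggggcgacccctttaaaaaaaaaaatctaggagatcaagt
Ttc19: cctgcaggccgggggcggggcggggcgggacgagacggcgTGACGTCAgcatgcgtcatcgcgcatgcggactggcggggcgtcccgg

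These 6 promoters are 5.94% of the list's 101, beside 3 of 50 promoters of the genes set aside by symbol. The share was 3.39% of 5688 promoters of genes whose brighter signal was at least 150 and whose ratio lay between 0.9 and 1.1. It was 1.79% of all 32851 promoters. Searched on both strands, TGACGTCA reads the same in either direction and contains the shortened element TGACGT, which was in 15.8% of list promoters, 28.0% of those set aside, 13.1% of those with little difference and 7.51% of all. The AP-1 site TGANTCA was in 12.9%, 4%, 4.83% and 7.81%, and counted by gene in 14.5% of list genes and 5.88% of those with little difference. TATAAA was in 15.8%, 8.00%, 6.70% and 13.6%, and the E-box CACGTG in 4.95%, 16.0%, 10.8% and 7.15%. The GC box GGGCGG was in 53.5%, 70.0%, 64.7% and 35.7%, and the kappa B letters GGGANTTTC were in 0.990%, 6%, 0.932% and 1.11%. Median GC content was 58.0%, 62.3%, 61.0% and 52.7%. In these windows AP-1 and TATA letters had a higher share among list promoters than in either other set of expressed genes, and E-box and GC box letters a lower one, and these differences were not tested. The promoters of a gene with several starts overlap or share their source, and a match is a description of letters, with no measure of binding.

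**Figure D4:**
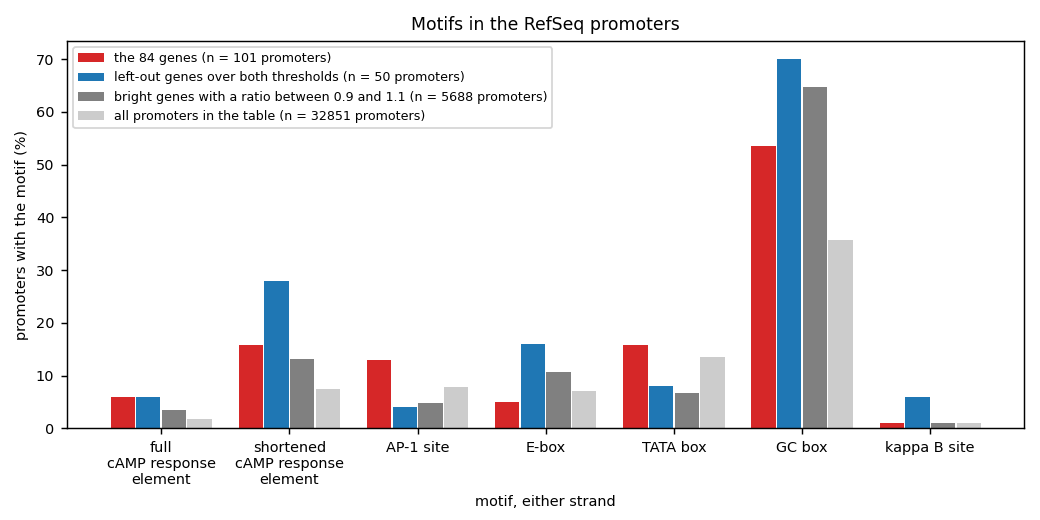
Percent of promoters that hold each searched motif on either strand, for the 84 genes (101 promoters), the genes set aside by symbol (50), genes with a ratio between 0.9 and 1.1 (5688) and all promoters of the table (32851). AP-1 letters were in 12.9% of list promoters and in 4.83% of those with little difference.

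Transcription and chromatin regulators made up 12 of the 84 genes. Kdm6b, a demethylase that removes the repressive methyl mark from lysine 27 of histone H3 (JMJD3), read 139 and 606, 4.37-fold higher, and on a second probe set 100 and 276, 2.76-fold higher. Kdm6a, which encodes the related demethylase UTX, read 1090 and 1196. Tal2, a basic helix-loop-helix factor, read 33.2 with medium, under the floor, and 160 with the supernatant, at least 4.17-fold higher. Ahr, the aryl hydrocarbon receptor, a ligand-activated transcription factor, read 148 and 461, 3.11-fold higher. Its dimerization partner Arnt read 441 and 345, the target Tiparp 1041 and 1299, and the target genes Cyp1a1 and Cyp1b1 lay under the floor on both arrays. The difference at Ahr was thus not accompanied by one of 1.7-fold at the pathway genes examined.

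Chd7, a chromatin remodeller, read 219 and 586, 2.67-fold higher, although its other probe set was only 1.13-fold higher. Nab2, a corepressor that binds the EGR factors, read 409 and 857, 2.10-fold higher, while its paralogue Nab1 read 5334 and 5692. Stat2, a component of the interferon response complex, read 82.9 and 166, 2.01-fold higher, and on its other probe set 105 and 111. Zkscan6, a zinc finger protein, read 104 and 250 on its brightest probe set but 58.0 and 43.9 on the other, a log2 ratio of -0.40. Csrnp1, a nuclear protein of the immediate response, read 184 and 331, and Arid5b, a DNA-binding partner of a histone demethylase, read 244 and 415. Spty2d1, Mxi1 and Hdgfl3 had ratios from 1.71 to 1.80. A list of 102 measured transcription regulators held 5 genes at least 1.7-fold higher, of which Batf3 (63.5 and 117) was outside the 84 genes. It held 0 lower, beside 2.05% and 2.3% of all measured genes, and nothing is read from the difference for the reason given above.

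Surface receptors and adhesion proteins gave 17 genes, at ratios from 1.7 to 3.51. Cd86, a costimulatory ligand for CD28 on T cells, read 212 and 743, 3.51-fold higher, and its second probe set read 285 and 421, 1.48-fold higher. Cd80, the other ligand of CD28, read 108 and 195, 1.81-fold higher, and its further probe sets were 1.85-fold and 3.25-fold higher. Cd274, which encodes the inhibitory ligand PD-L1, read 128 and 92.1, so the inhibitory ligand did not share the direction of the costimulatory pair.

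Among receptors of innate recognition, Clec7a (dectin-1, which binds beta-glucans of fungi) read 824 and 2025, 2.46-fold higher. Clec4n, dectin-2, read 468 and 837, 1.79-fold higher. Clec4e (Mincle) read 3426 and 5648, 1.65-fold higher and just short of the threshold, whereas Clec4d read 23006 and 23898. The lectin genes thus did not move as a block.

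The G protein-coupled receptors in the list sense lipids, protons, metabolites and chemerin. Gpr35, a receptor for which metabolites of tryptophan have been proposed as ligands, read 128 and 323, 2.52-fold higher. Gpr183, which responds to oxysterols made from 25-hydroxycholesterol, read 1155 and 2163, 1.87-fold higher. Gpr65, a proton-sensing receptor that raises cAMP, read 2255 and 3834, 1.7-fold higher. Ccrl2, an atypical receptor that binds chemerin, read 237 and 673, 2.84-fold higher. P2ry10b, a paralogue of the lysophospholipid receptor gene P2ry10, read 740 and 1385, 1.87-fold higher. Outside the list, P2ry2, a receptor for ATP and UTP, read 9.44, under the floor, and 96.8, at least 2.52-fold higher. Together 9 of the 74 measured receptors of a list of surface receptors were at least 1.7-fold higher, 8 of them among the 84 genes. In that list 1 was lower, beside 2.05% and 2.3% of all measured genes higher and lower. It was also written with results of these arrays known, so nothing is read from the difference.

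Other membrane proteins had several kinds of function. Flrt3, an adhesion protein with leucine-rich repeats, read 150 and 427, 2.84-fold higher, and 68.8 and 206 on its second probe set. Gja1, which encodes the gap junction protein connexin 43, read 607 and 1332, 2.20-fold higher, on a probe set whose probes can match other sequences. Its 5 other probe sets above the floor ranged from 1.03-fold to 2.02-fold higher, with 2 at 1.7-fold or more. Fzd1, a receptor for Wnt proteins, read 70.6 and 155, 2.20-fold higher. Thbd, thrombomodulin, which turns thrombin to the activation of protein C, read 506 and 980, 1.94-fold higher. The protein C receptor gene Procr read 1304 and 1286, and Tfpi, which encodes an inhibitor of the tissue factor pathway, read 1199 and 1077. Pvr, the poliovirus receptor and a ligand of NK and T cell receptors, read 382 and 671, 1.76-fold higher, and 5 of its 6 other probe sets above the floor lay between 1.62-fold and 2.23-fold higher. Scarf1, a scavenger receptor, read 117 and 214, and Tspan33, a tetraspanin, read 112 and 194, although another probe set of it read 72.9 and 81.0. Megf9 read 426 and 815, but its other probe set was 41.0 and 34.9, a log2 ratio of -0.093 with the latter set to the floor.

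Enzymes accounted for 12 genes. Hs3st2, which adds 3-O sulfate groups to heparan sulfate, had a deposited ratio of 10.9, from 15.7, under the floor, to 171. Set against the floor, the difference was at least 4.47-fold, and its probe set is of a kind whose probes can match other sequences. The gene's other probe sets lay under the floor on both arrays, so the difference rests on that probe set alone. B3gnt5, which starts the lacto-series of glycolipids, read 40.4 and 173, 4.28-fold higher, close to the floor with medium. Both ratios rest on medium signals close to or under the floor.

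Ch25h, the hydroxylase that makes 25-hydroxycholesterol, read 1979 and 4017, 2.03-fold higher. Acod1, which makes itaconate from an intermediate of the citric acid cycle, read 218 and 508, 2.34-fold higher. Sgms1, a sphingomyelin synthase, read 1971 and 3616, 1.83-fold higher, and 2 of its 3 other probe sets were 2.58-fold and 2.61-fold higher. Its paralogue Sgms2 read 108 and 128. Coq10b, a mitochondrial protein that binds coenzyme Q, read 547 and 1083, 1.98-fold higher, and 2.58-fold on its other probe set.

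Ces5a, a carboxylesterase (63.9 and 180, 2.82-fold), Fkbp11, a peptidyl-prolyl isomerase of the secretory pathway (72.5 and 155, 2.14-fold), and Plod2, a lysyl hydroxylase of collagen (74.4 and 152, 2.04-fold), lay near the signal threshold. The Ces5a difference also rests on a probe set whose probes can match other sequences, its others being under the floor on both arrays. The other probe set of Fkbp11 above the floor read 79.5 and 74.5. Plscr1, a phospholipid scramblase, read 688 and 1384, 2.01-fold higher, and Dclre1b, the telomere nuclease Apollo, read 210 and 420, 2-fold higher. The other probe set of Plscr1 above the floor read 512 and 1056, 2.06-fold higher, and that of Dclre1b 152 and 190, 1.25-fold higher. Both genes were reversed when the log2 signals of all probe sets, dim ones included, were averaged, with log2 ratios of -0.19 and -0.23. Cemip2, a membrane protein linked to the breakdown of hyaluronan, read 271 and 519, 1.92-fold higher, and 1.95-fold on its other probe set. A list of 95 measured enzymes of small-molecule metabolism held 4 genes at least 1.7-fold higher (4.21%) and 3 lower, beside 2.05% and 2.3% of all measured genes.

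Small GTPases, membrane traffic and the cytoskeleton gave 12 genes, among them scaffold proteins at the membrane. Cytip, a protein that binds cytohesins and thereby limits integrin adhesion, read 3323 and 8123, 2.44-fold higher, and its 2 other probe sets were 2.70-fold and 2.77-fold higher. Grasp, a related scaffold (tamalin), read 163 and 715, 4.38-fold higher, and its dimmer probe sets, under the floor with medium, were at least 1.45-fold and 2.24-fold higher. Cass4, a scaffold of the Cas family at focal adhesions, read 172 and 850, 4.93-fold higher. Of the cytohesins themselves, Cyth1 read 1230 and 2037, 1.66-fold higher, and Cyth4 read 2368 and 2383.

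Gem, an inducible GTPase of the RGK family, read 56.0, close to the floor, and 165, 2.95-fold higher. With the floor doubled, its log2 ratio fell from 1.56 to 1.11. Dennd4a, an exchange factor for Rab10, read 343 and 692, 2.02-fold higher. Plek, pleckstrin, a substrate of protein kinase C in blood cells, read 6385 and 10880, 1.704-fold higher. Wasl, which encodes N-WASP, an activator of actin nucleation, read 449 and 831, 1.85-fold higher, on its brightest probe set. Its next probe sets gave smaller differences, 445 and 465 (1.04-fold) and 353 and 453 (1.28-fold), so the size depends on the probe set. Was, its relative in blood cells, read 3399 and 3464. Rgl1, an exchange factor for Ral, read 94.0 and 160. Plekhf1, Arf2, Rilpl2 and Filip1l had ratios from 1.73 to 1.96. Among 93 measured small GTPases and regulators, 3 were at least 1.7-fold higher and 5 lower, and among 98 cytoskeletal, adhesion and traffic genes 2 were higher and 3 lower. The shares higher, 3.23% and 2.04%, lay near the 2.05% of all measured genes, of which 2.3% were lower.

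Genes of RNA decay, growth control and ubiquitin were fewer. Zc3h12a, Regnase-1, an RNase that degrades cytokine mRNAs, read 171 and 342, 2.001-fold higher on its brightest probe set, and 75.2 and 63.2 on the other. Zc3h12c of the same family read 437 and 724, 1.66-fold higher. Tob2, an antiproliferative protein that recruits the deadenylase complex, read 1285 and 2197, 1.71-fold higher, and its other probe sets ranged from a ratio of 0.609 to 1.80. Ddx28, a mitochondrial RNA helicase, read 613 and 1127, 1.84-fold higher. Phlda1, a pleckstrin homology domain protein of growth and death control, read 347 and 1148, 3.31-fold higher. Castor1, the arginine sensor of the mTORC1 pathway, read 130 and 231, and Rgcc, a cell cycle regulator, read 286 and 514.

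Fbxo11, a substrate receptor of SCF ubiquitin ligases, read 1231 and 2276, 1.85-fold higher, on the only probe set it has. Wdr48, which activates deubiquitinases, read 643 and 1205, but its other probe sets read 595 and 627, and 362 and 275. Among 84 measured genes of the ubiquitin system 1 was at least 1.7-fold higher and 5 lower, of 72 RNA-binding and decay genes 2 were higher and 2 lower, and of 47 genes of cell death and survival 1 was higher and 1 lower. The shares higher, 1.19%, 2.78% and 2.13%, lay near the 2.05% of all measured genes, of which 2.3% were lower. Dmkn, dermokine, and Tnc, the matrix protein tenascin C, were the 2 secreted products in the group. Dmkn read 52.6, close to the floor, and 183, 3.48-fold higher, and with the floor doubled its log2 ratio fell from 1.80 to 1.25. Tnc read 93.4 and 169, 1.80-fold higher. Of 42 measured secreted ligands and proteases in a further list, 0 were higher and 1 was lower, beside 2.05% and 2.3% of all measured genes.

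Unclear or less described roles were assigned to 11 genes. Gm6377, a predicted protein-coding gene on the X chromosome, read 432 and 3297, 7.62-fold higher. It was read by a single probe set, of the kind whose probes can match other sequences, so its signal may hold that of a similar transcript. Fam107b read 984 and 2643, 2.69-fold higher. Tmcc3, a membrane protein of the endoplasmic reticulum, read 535 and 1388, 2.59-fold higher, and all 4 of its other probe sets were higher, from at least 2.22-fold to 3.37-fold. Avpi1, a protein first described for its induction by vasopressin, read 816 and 1588, 1.95-fold higher. The long non-coding RNA AI504432 read 767 and 1415, 1.84-fold higher, and 1.56-fold on its second probe set. Ttc19, an assembly factor of respiratory complex III, read 155 and 274, but 120 and 151, and 65.9 and 50.8, on its other probe sets. Apbb3, Fam110a, Pxdc1, Spata5l1 and Tmem14a had ratios from 1.79 to 1.96.

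Other probe sets of the same gene read the same 2 RNA samples and are no replicate, but they show how far a ratio depends on the choice of probe set. Of the 84 genes, 30 had 1 probe set, and 47 had at least 1 other above the floor. In 13 of those 47 every other probe set above the floor was at least 1.7-fold higher, in 23 none was, and in 10 at least 1 was lower with the supernatant. The 85 other probe sets had a median ratio of 1.54, with 34 at 1.7 or more and 11 below 1. Restricted to the 49 with a signal of 150 or more on at least 1 array, the median was 1.699. Of these, 24 were at 1.7 or more and 2 below 1 (those of Prkab2 and Wdr48 above). Over all probe sets of measured named genes, 2.12% reached 1.7-fold. Bright second probe sets of these genes lay mostly in the same direction, at a smaller ratio in many cases. Some met the limit of 150 only with the supernatant, such as that of Rcan1 (113 and 629). The restriction itself thus favours higher ratios, and the direction is in part built in.

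**Figure D5:**
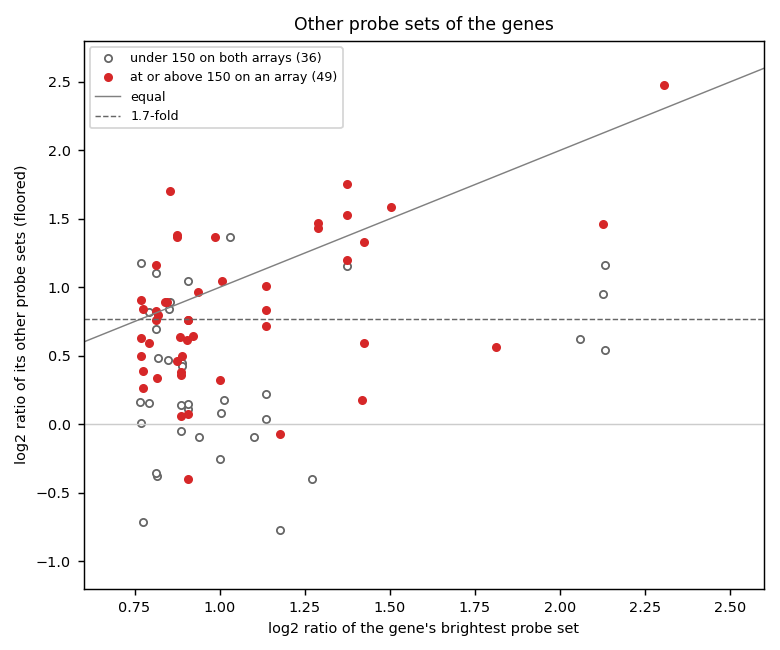
Log2 ratio of each other probe set above the floor against that of the brightest probe set of the same gene, which selected it (85 probe sets of 47 genes). Of these, 34 are at least 1.7-fold higher, 40 lie between 1 and 1.7, and 11 lie below 1.

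Suffixed probe sets, whose probes match several transcripts (_s), can match other sequences (_x) or match several transcripts of the same gene (_a), read 26 of the 84 genes (31.0%) and 25.9% of measured genes. Some genes lie near each other: Dclre1b and Ptpn22, as well as Wdr48 and Csrnp1, are separated by 2 coding genes in the RefSeq order, Plscr1 and Plod2 by 3, Tnc and Megf9 by 6, and P2ry10b and Gm6377 by 10.

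A further pair of lists covered pathways rather than protein classes. The list of cAMP and CREB targets and that of macrophage primary-response genes were meant to leave out the families set aside, but each held 2 such genes (Fosl2 and Il10, and Dusp8 and Il10), which are not counted here. Of 35 remaining measured cAMP and CREB targets, 5 were at least 1.7-fold higher (14.3%), namely Kdm6b, Gem, Coq10b, Csrnp1 and Arid5b, all among the 84 genes, and 1 was lower, with a median log2 ratio of 0.18. Of 108 remaining measured primary-response genes, 14 were higher (13.0%), all among the 84 genes, and 3 were lower, with a median log2 ratio of 0.19. With the families' genes kept in, the counts of higher genes were 6 of 37 and 15 of 110. The shares stand beside 2.05% of all measured genes, and both lists were written with results of these arrays known, so nothing is read from the difference.

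The thresholds cut through a continuous range. Just inside the ratio threshold lay Gpr65 (1.70001), Rgl1 (1.7004), Arid5b (1.7039), Plek (1.7041) and Tob2 (1.710), and just outside lay Pick1 (1.697), Ptpn4 (1.69), Tob1 (1.68), Itprip (1.68) and Rab43 (1.67). Tob1, the paralogue of Tob2, read 1601 and 2694. Just inside the signal threshold lay Plod2 (152), Fzd1 (155), Fkbp11 (155), Rgl1 (160) and Tal2 (160). Just outside it lay Nt5e, the ectoenzyme CD73 that makes adenosine from AMP (72.4 and 141, 1.95-fold), Dffb, the nuclease that cuts DNA in apoptosis (69.6 and 140), Sapcd2 (72.0 and 140), the p38 kinase gene Mapk11 (59.8 and 139) and Lzts3 (74.6 and 135). Genes on both sides of each threshold differed by amounts that 1 array per condition cannot resolve.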

How the data were processed

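Affymetrix Mouse Genome 430 2.0 arrays were hybridized with biotin-labelled cRNA (GeneChip 3' IVT Express kit), 1 per condition. The authors deposited MAS5 signals, a linear intensity for each of 45101 probe sets; MAS5 is named in the submitters' processing notes, and a genome build is not given in the sources used here. Array annotation gave 34958 probe sets a single gene. Probe sets with several genes (932) or none listed (9211) were not used.

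A gene was read by the single-gene probe set whose mean over both arrays was highest. The floor of 38.4 is the 95th percentile of 80 olfactory and vomeronasal receptor probe sets, the higher of both arrays. Ratios of the rule use signals as deposited, and lists and bounds use signals set to the floor. The gene lists, roles and families and the members themselves were chosen with earlier results of these data known. Genes named are the 25 highest ratios, 5 on each side of each threshold, up to 8 per list, and those with discordant probe sets, a full cAMP response element or a neighbouring member, and paralogues and pathway partners were added after their values were seen. No test was run. Alternatives were median-centring, quantile normalization, loess (span 30%), other floors, a pseudocount, other thresholds and other choices of probe set. Counting both pathway lists without genes of the families set aside was chosen after seeing the data. Steps were tested on simulated data, in which differences were planted only in brighter genes and the noise was smaller than the spread seen here. That run checks the code and not the error of these ratios. Tables were handled with pandas 2.3.3 and numpy 2.4.6 under Python 3.11.15, loess was run with statsmodels 0.14.6, and plots were drawn with matplotlib 3.10.9.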

Additional observations from a re-analysis of the deposited data

How the results depend on the processing

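The number of genes that met the rule, 84, moved to 147 with a signal threshold of 75, to 155 with a ratio threshold of 1.5 and to 38 with a ratio threshold of 2. Other settings gave 61 to 126 genes. All 84 genes were kept by median-centring (86 genes) and loess (90), and 81 by quantile normalization (87). With the floor as a pseudocount 65 were kept. Log2 ratios of 11 of the 84 genes then moved by the SD between probe sets given below or more. With the floor doubled 6 did, and Gem and Dmkn were among those that moved in both settings. With the mean of all probe sets 126 genes met the rule and only 46 of the 84 were kept, and with probe sets without a suffix 66 met it and 63 were kept. The median log2 ratio of the 84 genes stayed between 0.84 and 0.99 in the settings that recompute it, with fewer genes (76) where suffixed probe sets were left out. Direction turned for Abl2 (-0.27), Dclre1b (-0.23) and Plscr1 (-0.19) with the mean of all probe sets, where dim probe sets enter with equal weight, and for Megf9 (-0.093) and Zkscan6 (-0.40) without suffixed probe sets, and the cause was not tested. Among all genes at or above 150, the higher share of those 1.7-fold apart was 68.7% as deposited, 71.0% to 77.4% with other scalings and 56.8% with the mean of all probe sets.

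No paired analysis was possible because there was only 1 array of each kind. The spread between the probe sets of a gene, an SD of 0.25 on the log2 ratio over 5196 genes, holds no error between arrays or animals.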
